A study of Mus musculus with 16 samples.

Results

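Type 2 and Type 1 mouse glioblastomas labelled as depleted of tumour-associated macrophages (TAMs), a mix of resident microglia and macrophages from the blood, were compared. The comparison used 7 of the 16 RNA-seq libraries of the study, chosen by their labels: 4 Type 2 TAM depleted and 3 Type 1 TAM depleted tumours, each a separate library. All 7 were transplanted tumours of mouse models that the series title calls lineage-based and all 7 are labelled TAM depleted. Macrophage markers bear the label out unevenly: their mean log2 level was 6.16 to 7.39 in Type 1 TAM depleted, overlapping 6.79 to 7.59 in Type 1 Control, and 6.43 to 7.53 in Type 2 TAM depleted, below 7.78 to 9.07 in Type 2 Control tumours. The 5 Type 1 Control and 4 Type 2 Control tumours share no library with these 7 and are given beside them. The mean log2 level of 4 Y-linked genes was 0.27, 4.73 and 0.16 in Type 1 TAM depleted 1, 2 and 3. In Type 2 TAM depleted 1 to 4 it was 2.24, 0.17, 0.00 and 0.70. In Control tumours it was 4.71 to 7.63 in Type 1 and 4.99 to 6.96 in Type 2. Y-linked RNA thus ran partly with the depletion label, and its part in the results was not tested. Not known here are the founder cell and driver alleles of each type, the agent meant to remove the TAMs, and the age, sex and strain of the hosts, since the labels used here do not state them. Whether tumours share a transplanted line is not stated either. The p-values speak only for the spread among the tumours of the study, estimated in 1 fit over all 16 libraries.

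Glioblastoma is the most aggressive glioma, a tumour of glial or neural precursor cells. Mouse models that start from different precursor lineages are known to keep part of the gene programme of the cell of origin, such as genes of oligodendrocyte precursors or of early neuronal cells. Mycn and Myc, transcription factors that drive growth and ribosome production, can stand in for each other in neural tumours, and Mycn is the member that embryonic neural precursors use. Both bind the E-box CACGTG together with their partner MAX.

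The tumour types differed most over a stretch of chromosome 12 that holds Mycn, an RNA helicase gene, Ddx1, and Nbas, a gene of vesicle traffic between Golgi and endoplasmic reticulum. All 3 were high in the 3 Type 1 and low in the 4 Type 2 tumours. Outside it, Type 2 tumours had more RNA of the oligodendrocyte connexin gene Gjc3, of the axon guidance genes Sema3d and Plxnb3 and of the matrix genes Col3a1 and Lum, and less of the retinoic acid binding protein Crabp1, the neurogenic factor Nhlh1 and the sensory neuron genes P2rx3 and Pou4f1. The TAM marker genes did not differ past the threshold between the types. In bulk RNA, fewer cells of a type and less RNA per cell cannot be told apart.

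The sequences just before the start of the 3 protein-coding genes of the chromosome 12 stretch are shown because these genes carry the largest difference. They are written 5′ to 3′ on the strand of the gene, with CG dinucleotides, the sites of DNA methylation in mammals, in capitals. They come from the RefSeq table of GRCm38.p6 and stop before the first transcribed base in both RefSeq and GENCODE.
Mycn: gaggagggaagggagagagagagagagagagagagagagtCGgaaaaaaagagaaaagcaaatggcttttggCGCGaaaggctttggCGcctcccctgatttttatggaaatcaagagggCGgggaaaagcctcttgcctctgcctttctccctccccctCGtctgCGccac
Ddx1: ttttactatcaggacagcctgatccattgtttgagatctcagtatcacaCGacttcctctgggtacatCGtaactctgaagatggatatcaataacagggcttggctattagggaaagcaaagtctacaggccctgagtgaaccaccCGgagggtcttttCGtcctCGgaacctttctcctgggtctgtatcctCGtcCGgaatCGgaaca
Nbas: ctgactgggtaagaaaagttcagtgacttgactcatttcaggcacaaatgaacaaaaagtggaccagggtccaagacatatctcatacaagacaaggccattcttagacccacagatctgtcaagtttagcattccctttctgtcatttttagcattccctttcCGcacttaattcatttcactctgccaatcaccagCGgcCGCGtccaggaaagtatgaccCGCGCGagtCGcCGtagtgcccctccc
The Mycn stretch is chr12:12941915-12942086 on the minus strand and holds 7 CG dinucleotides in 172 bases. That of Ddx1 is chr12:13249214-13249424 on the minus strand, with 8 in 211 bases. That of Nbas is chr12:13268877-13269126 on the plus strand, with 9 in 250 bases. Of the 49 genes that differed between the types, 25 had an entry in the RefSeq table. In the 250 bases before the RefSeq start, only Slitrk6 among these 25 (4%) held the E-box CACGTG, which reads the same on both strands. The motif was present in 6.86% of all 27025 genes of the table (1854 genes). The match is a string of letters and was not measured as a bound site. It is in capitals in the sequence of Slitrk6, a neuronal membrane protein gene that was higher in Type 2, at chr14:110755150-110755399 on the minus strand.
Slitrk6: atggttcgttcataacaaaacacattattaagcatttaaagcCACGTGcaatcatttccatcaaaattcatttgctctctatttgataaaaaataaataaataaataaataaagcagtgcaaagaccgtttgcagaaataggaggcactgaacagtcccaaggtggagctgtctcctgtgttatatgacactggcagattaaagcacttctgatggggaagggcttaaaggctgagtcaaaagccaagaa

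Depth and background differed between the libraries. The Type 1 libraries held 14.3 to 15.95 M (mega) recovered reads (15.3 ± 0.91 M, SD, n = 3) and the Type 2 libraries 6.72 to 18.3 M (12.2 ± 5.22 M, SD, n = 4). Reads in 997 odour and pheromone receptor genes, which glioma tissue is not known to use and which serve here as a measure of background, made 183 to 499.6 reads per M in the 3 Type 1 libraries. They made 156 and 97.0 per M in Type 2 TAM depleted 1 and 2, but 2717 and 5931 per M in Type 2 TAM depleted 3 and 4, which are called high-background. The predicted gene Gm10800 took 25.7% and 41.3% of the reads of these 2 libraries (95% Wilson intervals 25.67% to 25.73% and 41.28% to 41.36%, counting error only), against 0.0491% to 2.03% in the other 5. Since background runs partly with tumour type, results are also given for the 5 low-background libraries, Type 2 TAM depleted 1 and 2 against the 3 Type 1. The first principal component, with 58.8% of the variance, placed the 2 high-background libraries at one end (143 and 227, the others at 9.90 or less). On it Type 1 TAM depleted 3 (-122) lay near Type 2 TAM depleted 1 and 2 (-125 and -141). It lay apart from Type 1 TAM depleted 1 and 2 (7.85 and 9.90).

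Of 26463 genes tested, 15 were higher and 34 lower in Type 2 (limma-trend, Benjamini-Hochberg adjusted p under 0.05), which is 0.0567% and 0.128% of the genes, 0.185% in all. Log2 fold changes throughout are Type 2 over Type 1 on the log2(normalized count + 1) scale, which understates changes of low genes. At an unadjusted p under 0.05, 1342 genes were higher (5.07%) and 1864 lower (7.04%). By sign alone, 14759 of the 26463 genes were higher in Type 2 and 11704 lower, beside which the list counts below stand. Of the 997 receptor genes that measure background, 969 were higher in Type 2. Their median log2 fold change was 1.31, and -0.99 in the low-background libraries. The 4 and 3 libraries did not overlap in 873 genes that were higher (3.3%) and in 1526 that were lower (5.77%), and they overlapped in 0 of the 49. The number of genes past the threshold depended on single libraries: it was 12 without Type 1 TAM depleted 1, 15 without Type 1 TAM depleted 2 and 234 without Type 1 TAM depleted 3. Genes that passed in all 7 such fits numbered 11: Mycn, Ddx1, Nbas, Sema3d, Slitrk6, Cyp3a13 and the gene models Gm2792, Gm35638, Gm35725, Gm48311 and Gm6736. The other 38 lost the threshold without at least 1 tumour. Of those named at the start, Crabp1 passed in 6 of the 7 fits, Gjc3 in 5 and Lum in 4. Col3a1 and Nhlh1 passed in 3, P2rx3 and Pou4f1 in 2 and Plxnb3 in 1. In the 5 low-background libraries all 49 kept their sign, which was fixed in advance because their groups did not overlap. Of the 49, 18 passed there. Outside the chromosome 12 stretch these were 9: Crabp1, Nhlh1, P2rx3, Igfbpl1, Sema3d and the models Gm41555, Gm2792, Gm20468 and Rps2-ps10. Type 1 TAM depleted 3 was the lowest Type 1 library for 32 of the 34 genes lower in Type 2 and the highest for 9 of the 15 genes higher in Type 2. With quantile normalization the split was 5 higher and 26 lower, and the median of all genes moved from 0.11 to -0.04.

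Mycn (GRCm38, chr12:12936093-12941914, minus strand) had normalized counts of 42730, 30620 and 19370 in the 3 Type 1 tumours. In the 4 Type 2 tumours it had 108.1, 102.8, 99.2 and 465.5. Every Type 1 tumour was more than an order of magnitude above every Type 2 tumour, and Type 2 TAM depleted 4, a high-background library, stood above the other Type 2 tumours. Mycn fell by 7.60 on the log2 scale in Type 2 (SE 0.61, limma adjusted p = 1.9e-05). Ddx1 (chr12:13216973-13249213, minus strand) had 383500, 393100 and 129000 counts in Type 1 and 1035, 1051, 1109 and 2886 in Type 2, a log2 fold change of -7.62 (SE 0.68, limma adjusted p = 4.53e-05). Nbas (chr12:13269133-13583811, plus strand) had 137500, 118000 and 43100 counts in Type 1 and 622.3, 972.9, 494.0 and 1982 in Type 2 (log2 fold change -6.66, SE 0.66, limma adjusted p = 0.000143). In all 3 genes Type 1 TAM depleted 3 was the lowest Type 1 tumour and Type 2 TAM depleted 4 the highest Type 2 tumour.

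These 3 genes lie in an unbroken run of 22 tested genes, all lower in Type 2 by 2 or more on the log2 scale, which was delimited after the values were seen and is described without a test. It spans chr12:12351522-13627646 (1.28 Mb) from 4921511I17Rik to Gm35725 and holds 3 protein-coding genes and 19 other models (long non-coding RNAs, pseudogenes and unconfirmed models). Log2 fold changes in the run were -8.86 to -2.80 with a median of -5.29, and 9 of the 22 passed the threshold, 18.4% of all genes that did. The lowest value was that of Gm35725, an intergenic RNA at the distal edge, with 15610, 12750 and 5698 counts in Type 1 and 10.8, 4.19, 18.3 and 215 in Type 2. The next tested genes on either side, Gm4294 327.9 kb before and Gm48482 500.5 kb after the run, had log2 fold changes of -0.53 and 2.47, and 0 of the 13 tested genes within 1 Mb of the run passed. The 19 other models had median counts of 697.5, 490.8 and 26.9 in the Type 1 tumours and of 0.57, 1.20, 7.55 and 72.1 in the Type 2 tumours. By this median Type 1 TAM depleted 3 was below Type 2 TAM depleted 4. At 6 of the 19 models (Gm35725, 4930519A11Rik, Gm48309, Gm6736, Gm35638 and Gm48311) and at the 3 protein-coding genes the groups did not overlap. In the 13 flanking genes the medians were 6.05 to 8.59 in Type 1 and 3.41, 7.18, 17.3 and 36.1 in Type 2, highest in the 2 high-background libraries. The kit does not mark strand, so reads of Nbas or Ddx1 and of models inside or opposite them, such as the antisense model Gm48311, cannot be told apart. Processed pseudogenes in the run, such as Gm6736 and Gm35638, can share reads with their parent genes.

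**Figure D1:**
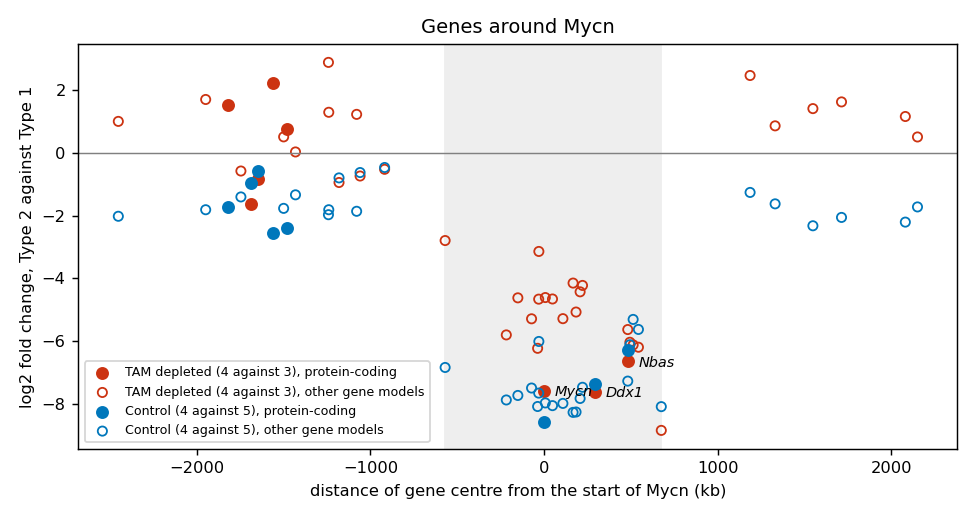
Log2 fold change of Type 2 over Type 1 for the tested genes around Mycn, against the distance of each gene's centre from the start of Mycn in kb. Red points are TAM depleted tumours (4 against 3), blue points Control tumours (4 against 5), filled points protein-coding genes and the grey band the run of 22 genes. Red points in the band lie between -8.86 and -2.80, and those of the 13 flanking genes within 1 Mb lie between -0.95 and 2.89.

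The run took a large part of the Type 1 transcriptome: 6.63%, 5.95% and 2.44% of all recovered reads in the 3 Type 1 tumours. In the 4 Type 2 tumours it took 0.0219%, 0.0201%, 0.0188% and 0.0677%. The Control tumours, which share no library with these, gave 0.922% to 5.19% in Type 1 and 0.0126% to 0.0247% in Type 2. There all 22 genes of the run passed the threshold with groups that did not overlap, at log2 fold changes of -8.60 to -5.32 (median -7.70). Within the 5 low-background libraries the median of the run was -6.75 and 10 of the 22 genes passed. Copy number was not measured. Myc, the paralogue of Mycn, ran the other way: 82.0, 77.5 and 119 counts in Type 1 and 654, 883, 548 and 169 in Type 2. Its groups did not overlap, but its log2 fold change of 2.39 (SE 0.49) had a limma adjusted p of 0.0665. It was 2.27 in the Control tumours (limma adjusted p = 0.00677).

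Among the named genes outside the run, Crabp1 and Nhlh1 had the largest falls in Type 2. Crabp1, which binds retinoic acid in the cytosol, had 4757, 1013 and 975 counts in Type 1 and 6.26, 2.39, 28.0 and 39.3 in Type 2. It fell by 7.01 on the log2 scale (SE 0.99, limma adjusted p = 0.00448). Nhlh1, a basic helix-loop-helix factor of newly born neurons, had 1074, 1137 and 337 counts in Type 1. It had 2.84, 1.20, 53.9 and 24.6 in Type 2 and fell by 6.16 (SE 1.09, limma adjusted p = 0.0244). For both genes the 2 high-background libraries gave the higher Type 2 values, and in the low-background libraries the log2 fold changes were -8.40 and -8.00.

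P2rx3, an ATP-gated channel of sensory neurons, had 2995, 2921 and 602 counts in Type 1 and 42.1, 25.1, 297 and 52.5 in Type 2 (log2 fold change -4.74). Igfbpl1, an insulin-like growth factor binding protein-like gene of immature neural cells, had 1904, 802 and 411 against 24.5, 13.8, 126 and 37.7 (-4.54). Pou4f1, a POU factor of sensory neurons, had 480, 480 and 178 against 34.7, 36.5, 91.7 and 44.3 (-2.83). In each of these 3 genes Type 1 TAM depleted 3 was the lowest Type 1 tumour and Type 2 TAM depleted 3 the highest Type 2 tumour. Their groups did not overlap, which the naming rule required. Hoxa3, a homeobox gene that patterns the hindbrain and is silent in the normal forebrain, had 572, 548 and 162 counts in Type 1 and 77.9, 11.96, 56.1 and 41.0 in Type 2 (-3.23, limma adjusted p = 0.0409). 5730596B20Rik, which lies within the span of Hoxa3 on the opposite strand, also fell, and with an unstranded kit reads in overlapping parts cannot be told apart. Hoxa5, in the same cluster, had 1465, 967 and 231 counts against 92.7, 1.20, 55.0 and 18.0, a log2 fold change of -5.00 with a limma adjusted p of 0.0899.

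The other named falls included genes of transport, adhesion and signalling. Slc1a5, a neutral amino acid and glutamine transporter, had 956, 637 and 427 counts in Type 1 and 150, 127, 128 and 77.03 in Type 2 (log2 fold change -2.44, SE 0.43, limma adjusted p = 0.024). Mdga1, a membrane-anchored protein that regulates synapse formation, had 1766, 1378 and 803 against 205, 502, 182 and 179 (-2.37). Edaradd, the adaptor of the ectodysplasin receptor, fell by 4.05, Sectm1a by 3.91, and Phf21b by 2.47 on the log2 scale. Vcp-rs, a sequence related to the Vcp gene that can share reads with it, fell by 2.76. Further named genes past the threshold had smaller falls: the actin-binding gene Triobp (-2.33), the snoRNA host Snhg15 (-2.07), the small GTPase gene Rhebl1 (-1.93) and the non-coding RNA Lncppara (-1.80). Lncppara lies 797.6 kb from Phf21b on chromosome 15. Among the 49 genes, 17 are unnamed models, and 2 had no single match in the annotation.

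Genes that rose in Type 2 were fewer and smaller in fold. Sema3d, a secreted axon guidance cue of the semaphorin family, had 46.6, 55.7 and 84.2 counts in Type 1 and 486, 464, 378 and 734 in Type 2. It rose by 3.03 on the log2 scale (SE 0.41, limma adjusted p = 0.00281) and by 2.96 in the low-background libraries, where it also passed (limma adjusted p = 0.0301). Plxnb3, a plexin receptor of semaphorins, had 75.3, 60.5 and 178 counts against 548, 718, 302 and 321 (2.23, SE 0.43, limma adjusted p = 0.0449). Sema3d and Plxnb3 were the 2 of 27 axon guidance genes past the threshold. The 27 had a median log2 fold change of 0.65, against 0.11 over all genes tested, and 20 were higher in Type 2. Slitrk6, a membrane protein of neurons with leucine-rich repeats, had 5.62, 4.24 and 12.6 counts in Type 1 and 76.2, 67.6, 89.5 and 82.0 in Type 2 (3.35, SE 0.41, limma adjusted p = 0.000831). The 4 Type 2 tumours were close to each other for this gene, low-background and high-background alike.

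Gjc3, which encodes connexin 29 of oligodendrocytes and Schwann cells, had 126, 208 and 297 counts in Type 1 and 1741, 1309, 1373 and 1129 in Type 2 (log2 fold change 2.79, SE 0.44, limma adjusted p = 0.0111). Cyp3a13, a cytochrome P450 gene 31.8 kb from it, had 8.42, 6.66 and 8.59 against 81.4, 38.3, 50.7 and 121 (2.93). Slc5a7, the choline transporter of cholinergic neurons, had 9.55, 9.08 and 6.30 against 91.6, 33.5, 61.5 and 107 (2.89). Stk32a, a serine/threonine kinase gene, had 42.1, 39.3 and 55.6 against 1395, 153, 1290 and 379 (3.63), the widest spread of these among Type 2 tumours. Lims2, an adaptor of integrin adhesions, rose by 2.65, Capn6, a calpain without protease activity, by 2.21, and the carboxypeptidase gene Cpq by 1.89. None of Gjc3, Cyp3a13, Slc5a7 and Stk32a passed in the low-background libraries alone (limma adjusted p from 0.0951 to 0.362), where their log2 fold changes were 2.62 to 3.33.

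**Figure D2:**
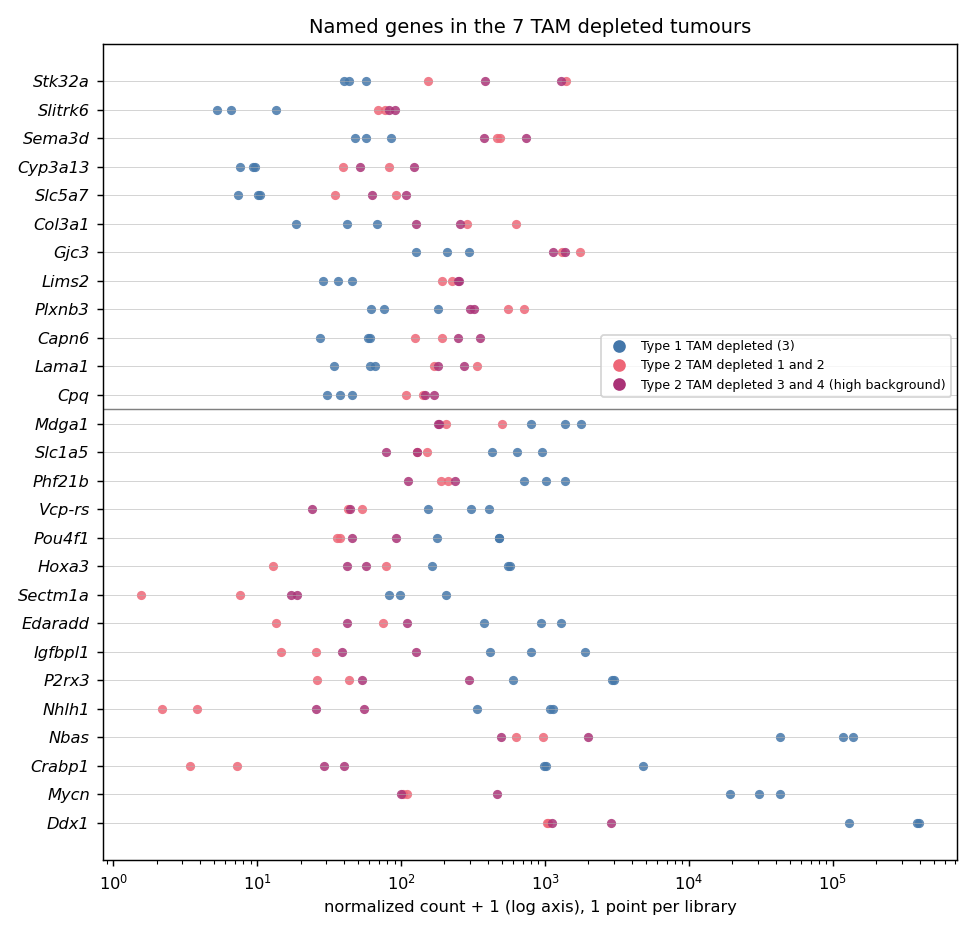
Normalized count + 1 (log axis) of 27 named genes past the threshold in each of the 7 TAM depleted tumours, 1 point per library, with genes higher in Type 2 above the grey line and genes lower below it. Blue points are Type 1, light red Type 2 TAM depleted 1 and 2, and purple the high-background Type 2 TAM depleted 3 and 4. The colours do not overlap between types in any row, because only genes without overlap were named. The widest gaps are those of Ddx1, Mycn and Crabp1.

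Fibroblast matrix was the only cell type list with members past the threshold, 2 of 13 (Col3a1 and Lum). Col3a1, a fibrillar collagen, had 41.0, 67.2 and 17.8 counts in Type 1 and 287, 632, 125 and 257 in Type 2 (log2 fold change 2.88, SE 0.51, limma adjusted p = 0.0246). Lum, a collagen-binding proteoglycan, had 5.62, 3.03 and 5.73 against 26.7, 71.2, 23.7 and 27.9 (2.62, SE 0.45, limma adjusted p = 0.0221). Type 2 TAM depleted 2 was the highest library for both. Of the 13 genes 12 were higher in Type 2, 8 at an unadjusted p under 0.05, and the median was 1.63 (1.66 in the low-background libraries, 1.37 between the Control groups). Lox, which crosslinks collagen, had 10.7, 10.3 and 14.3 against 55.2, 83.1, 34.5 and 86.9, a log2 fold change of 2.29 with a limma adjusted p of 0.0783. Lama1, a laminin chain of basement membranes, rose by 2.16 (SE 0.34, limma adjusted p = 0.0119) from 65.2, 33.3 and 60.2 to 336, 169, 273 and 180. Endothelial genes had a median of 0.11, and mural cell genes one of 0.18, with 0 of 12 and 0 of 9 past the threshold.

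Oligodendrocyte precursor genes had a median of 1.67 over 14 genes, 1.60 in the low-background libraries and 1.70 between the Control groups. Of the 14, 13 were higher in Type 2, 6 at an unadjusted p under 0.05, 5 without overlap, and 0 past the adjusted threshold. Sox10, the master factor of the lineage, had 108, 238 and 252 counts in Type 1 and 855, 1351, 351 and 779 in Type 2 (2.00, limma adjusted p = 0.18). Gpr17, a receptor of committed precursors, had 68.5, 171 and 339 against 1175, 719, 2259 and 820 (2.81, limma adjusted p = 0.206). Erbb3, a neuregulin receptor subunit, had 42.7, 41.2 and 61.3 against 225, 884, 64.7 and 300 (2.37, limma adjusted p = 0.202). Cspg4, which encodes NG2, overlapped between the types (1.86, limma adjusted p = 0.26), as did Olig2 (304, 558 and 720 against 4638, 575, 3782 and 728), Pdgfra (1.03, limma adjusted p = 0.531) and Nkx2-2 (0.87, limma adjusted p = 0.657). Olig2 was several times higher in Type 2 TAM depleted 1 and 3 than in any other of the 7 tumours.

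Myelin genes of mature oligodendrocytes were higher in Type 2 in 11 of 11, with a median of 2.50 and 10 at an unadjusted p under 0.05, and 0 passed the adjusted threshold. Their median was 1.39 without Type 1 TAM depleted 2 and 3.49 without Type 1 TAM depleted 3, and 0.30 between the Control groups. Mbp, a main myelin protein, had 1059, 265 and 4976 counts in Type 1 and 4891, 15090, 6949 and 6084 in Type 2 (2.74, limma adjusted p = 0.213). Opalin had 16.9, 2.42 and 27.5 against 26.7, 152, 90.6 and 107 (2.74, limma adjusted p = 0.127), and Cldn11, the tight junction protein of myelin, 125, 44.2 and 561 against 815, 1058, 1698 and 836 (2.84, limma adjusted p = 0.182). Type 1 TAM depleted 3 was the highest and Type 1 TAM depleted 2 the lowest Type 1 tumour for all 3.

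Neuron markers varied in the same order among the Type 1 tumours. Their mean log2 level was 9.70, 7.72 and 11.2 in Type 1 TAM depleted 1, 2 and 3 and 10.8, 12.5, 9.61 and 10.9 in the 4 Type 2 tumours, so that the types overlapped. The median of the 15 genes was 1.79, with 13 higher in Type 2 and 0 past the threshold (-2.14 between the Control groups), and it was 0.53 without Type 1 TAM depleted 2. Astrocyte markers had a median of 0.84 with 0 of 12 past the threshold, and Gfap had 2548, 5912 and 6817 counts against 4786, 5857, 2293 and 7294. The Type 1 tumour with most neuronal and myelin RNA, number 3, was also the one with least Mycn, Crabp1 and Nhlh1, and the part of these markers in those results was not tested.

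**Figure D3:**
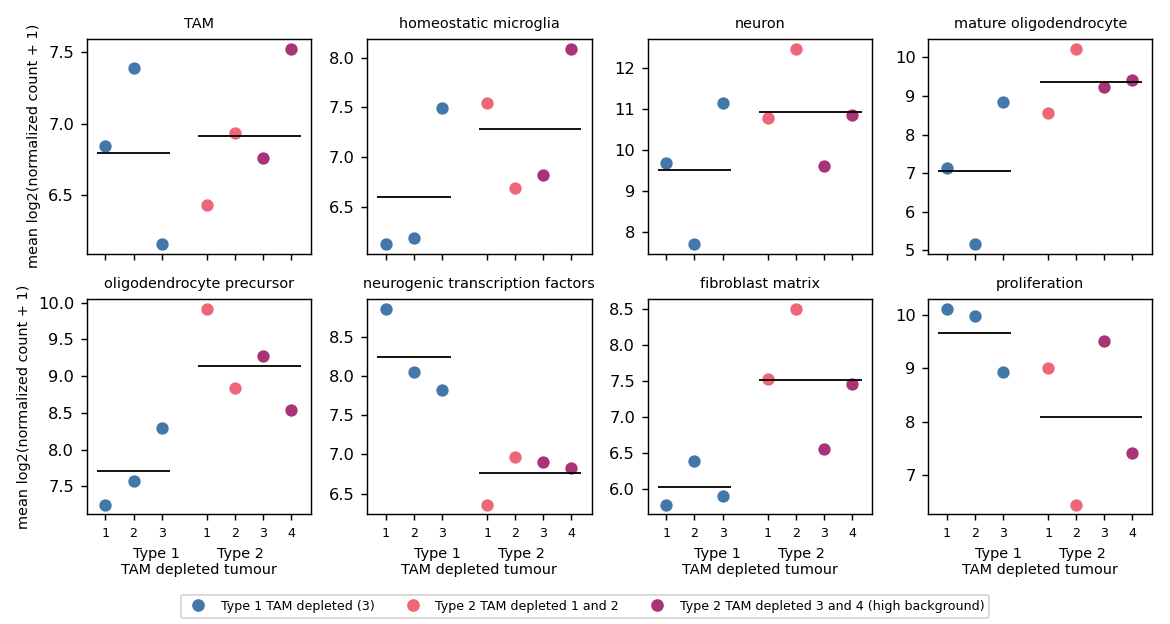
Mean log2(normalized count + 1) of 8 gene lists in each TAM depleted tumour, with numbered Type 1 tumours in blue, Type 2 TAM depleted 1 and 2 in light red, 3 and 4 in purple and the group mean as a black line. Axes differ between panels and do not start at 0. Oligodendrocyte precursor, neurogenic and fibroblast matrix levels do not overlap between the types, whereas TAM, microglia, neuron, myelin and proliferation levels do.

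Proliferation genes were lower in Type 2 in 20 of 20, with a median of -1.61 (-1.95 in the low-background libraries), 13 at an unadjusted p under 0.05, 3 without overlap and 0 past the adjusted threshold. Ccnb1, the mitotic cyclin B1, had 1875, 2073 and 812 counts in Type 1 and 524, 69.4, 784 and 171 in Type 2 (-2.47, limma adjusted p = 0.174). Cdk1, its kinase, had 1078, 923 and 398 against 371, 59.8, 397 and 125 (-2.004, limma adjusted p = 0.199). For both genes Type 2 TAM depleted 1 and 3 came nearer to Type 1 TAM depleted 3, and Type 2 TAM depleted 2 and 4 were far lower. By the mean log2 level of the 20 genes, Type 2 TAM depleted 1 and 3 lay above Type 1 TAM depleted 3 (8.93). They lay below Type 1 TAM depleted 1 and 2. Only Type 2 TAM depleted 2 and 4 were below all Type 1 tumours by this level. Type 2 TAM depleted 2, lowest for proliferation (mean log2 level 6.45), was the highest of the 7 for neuron (12.5) and myelin (10.2) markers. Between the Control groups the median was -0.15, with 9 of 20 genes higher in Type 2.

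Neurogenic transcription factors, which turn neural precursors into neurons, had a mean log2 level of 8.85, 8.05 and 7.82 in Type 1 and 6.36, 6.97, 6.90 and 6.83 in Type 2. Of 15 genes 12 were lower in Type 2, 4 at an unadjusted p under 0.05, 5 without overlap and 0 past the adjusted threshold. The median was -1.29, and -0.62 in the low-background libraries. Insm1, a zinc finger factor of neuroendocrine and newly born neuronal cells, had 2154, 1374 and 1233 counts in Type 1 and 63.1, 59.2, 716 and 36.1 in Type 2 (-3.94, limma adjusted p = 0.0741). Neurod1 had 2327, 1633 and 411 against 19.9, 231, 63.6 and 80.3 (-4.03, limma adjusted p = 0.0973), and Neurod4 and Sox11 had log2 fold changes of -4.16 and -2.67 (limma adjusted p = 0.114 and 0.177). In the Control groups 8 of the 15 were past the threshold and lower in Type 2.

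None of the stem cell genes and tumour suppressors given here passed the threshold. Sox2 had a log2 fold change of 0.92, Nes of 0.11 and Egfr of -0.58 (limma adjusted p = 0.66, 0.961 and 0.78). Of the suppressors whose loss is common in gliomas, Nf1 had 0.63 and Trp53 -0.43 (limma adjusted p = 0.59 and 0.756), with overlapping groups. RNA level does not show whether an allele is mutated. Among 24 glioma growth signalling genes Mycn was the one past the threshold, and the median was -0.33 (0.04 in the low-background libraries). Emx2, a cortical homeobox gene, had 24.7, 5.45 and 39.0 counts in Type 1 and 67.1, 136, 82.0 and 75.4 in Type 2 (2.22, limma adjusted p = 0.145). That was the largest rise among 18 forebrain regional factors, of which 6 were higher and 12 lower in Type 2 (median -0.27). Of 14 neural stem cell genes 7 were higher and 7 lower (median -0.09).

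TAM genes did not differ past the threshold between the depleted groups. The mean log2 level of 24 macrophage and microglia genes was 6.84, 7.39 and 6.16 in Type 1 and 6.43, 6.94, 6.76 and 7.53 in Type 2, beside 7.17 ± 0.30 (SD, n = 5) in Type 1 Control and 8.34 ± 0.66 (SD, n = 4) in Type 2 Control tumours. The mean was lower in TAM depleted than in Control tumours for 15 of the 24 genes in Type 1 and for 24 of 24 in Type 2. Among those whose mean was not lower in Type 1 were C1qa (297 against 289 counts in Control), Cd68 (236 against 178) and Lyz2 (821 against 493), named after their values were seen. Of the 24, 13 were higher and 11 lower in Type 2, 0 at an unadjusted p under 0.05 and 0 past the adjusted threshold, with a median of 0.03 (-0.18 in the low-background libraries). Csf1r, the receptor on which microglia and macrophages depend, had 146, 148 and 247 counts against 258, 285, 165 and 457 (0.64, SE 0.48, limma adjusted p = 0.61). Aif1 (IBA1) had -0.26, Cd68 -0.44 and C1qa 0.13. The microglia genes Tmem119 (1.32, limma adjusted p = 0.392) and P2ry12 (0.98, limma adjusted p = 0.511) were among the 10 of 10 homeostatic microglia genes higher in Type 2, with a median of 0.63 and 0 past the threshold. Antigen presentation genes had medians of 0.28 over the MHC class II genes and 0.08 over those of MHC class I, with levels that varied more within than between the types. Cd74, the invariant chain, had 409, 603 and 8.02 counts in Type 1 and 106, 1194, 277 and 130 in Type 2. Neither direction was stable: across the alternatives the class II median ran from -0.93 (without Type 1 TAM depleted 3) to 1.41 (without Type 1 TAM depleted 2), and that of class I from -0.55 (without Type 1 TAM depleted 3) to 0.57 (with background as a term). With quantile normalization they were -0.15 and -0.04. Without Type 2 TAM depleted 2 they were -0.21 and -0.30. Interferon response genes were higher in Type 2 in 27 of 30, with a median of 0.49 and 0 past the threshold. The median was -0.10 with library quality weights, 0.07 without Type 1 TAM depleted 3 and 0.07 without Type 2 TAM depleted 2.

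**Figure D4:**
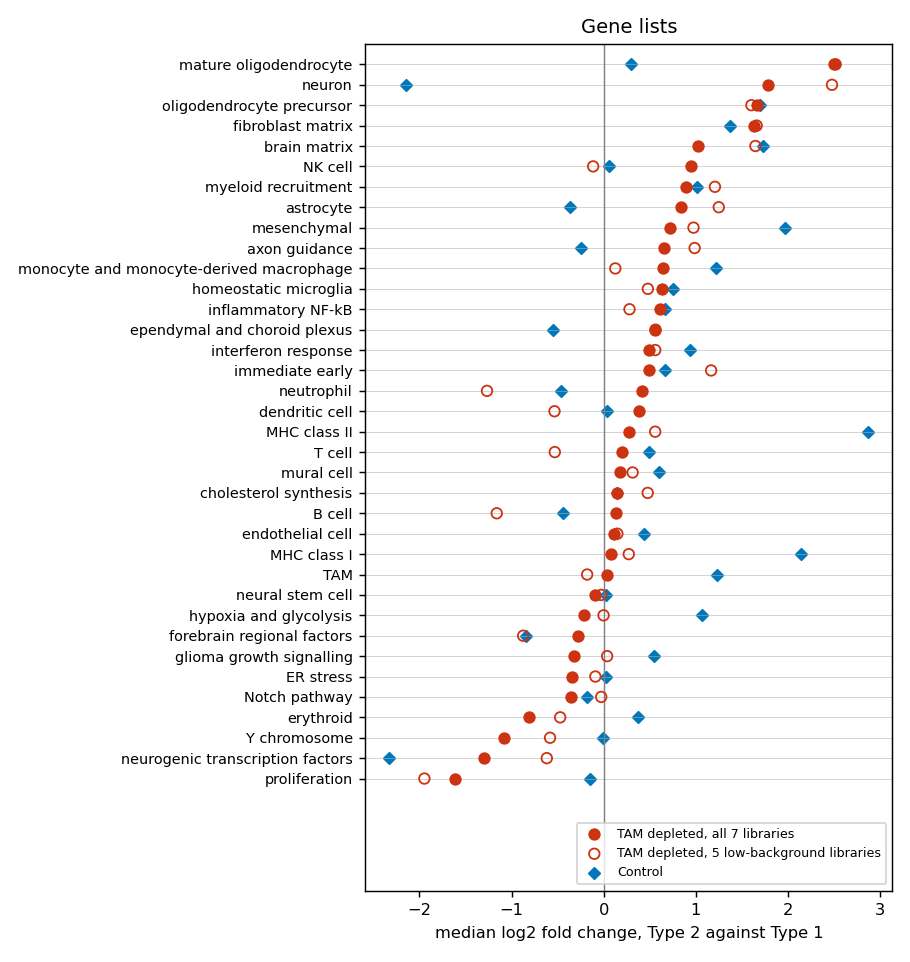
Median log2 fold change of Type 2 over Type 1 for 36 gene lists in all 7 TAM depleted tumours (filled red), in the 5 low-background TAM depleted libraries (open red) and between the Control groups (blue diamonds). Myelin, neuron, oligodendrocyte precursor and fibroblast matrix lists lie farthest to the right and proliferation farthest to the left among the TAM depleted tumours. For MHC class I and II, neuron, myelin and proliferation lists the Control value stands far from both red values.

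Placing the TAM depleted difference beside that of the Control tumours asks which differences between the types are found under both labels. Between the Control groups 819 genes passed the threshold, 603 higher and 216 lower in Type 2 (3.09% of the genes tested). The split of higher against lower depended on the analysis: it was 626 and 446 with upper quartile scaling and 1079 and 725 with quantile normalization. Lower genes outnumbered higher ones with limma-voom (902 and 1441), background as a term (482 and 744) and library quality weights (2646 and 3913). The 2 comparisons share no library and share the estimate of the spread. Of the 49 genes of the TAM depleted comparison, 32 also passed in the Controls, all in the same direction, which is 65.3% of the TAM depleted and 3.91% of the Control list. They include 12 of the 15 higher and 20 of the 34 lower genes. Of the 819, 697 (85.1%) had the same sign in the TAM depleted tumours. The share over all genes tested is not given here, so this count cannot be set against it. Sema3d (4.35), Gjc3 (4.92), Plxnb3 (3.15) and Lims2 (2.93) passed in the Controls, with log2 fold changes at least as large as after depletion. Crabp1 (-6.21), Nhlh1 (-5.38), P2rx3 (-4.22) and Igfbpl1 (-4.99) also passed in the Controls, lower in Type 2 in both comparisons. Hoxa3 (-1.23), Pou4f1 (-1.29), Slc1a5 (-0.95), Sectm1a (-1.81) and Lama1 (0.90) did not pass there.

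Whether the difference between the types itself changed with depletion was tested as an interaction, and 0 genes passed in limma-trend (smallest adjusted p 0.312) and 0 in limma-voom, but 166 with background as a term and 748 with library quality weights. At an unadjusted p under 0.05 there were 2666 genes (10.1%), and 19 of the 49 were among them, a count favoured by their choice on the same TAM depleted libraries. Triobp had log2 fold changes of -2.33 after depletion and 0.00 in the Controls (limma adjusted p = 0.334 for the interaction). Lncppara had -1.80 and 0.05 (limma adjusted p = 0.382), and Slc5a7 2.89 and 0.17 (limma adjusted p = 0.433). Gjc3 differed the other way, 2.79 against 4.92 (limma adjusted p = 0.433). Of lists, the neuron genes had 12 of 15 and the hypoxia and glycolysis genes 9 of 15 members at an unadjusted interaction p under 0.05. Vegfa, the vessel growth factor induced by hypoxia, had 1271, 3724 and 667 counts in Type 1 and 874, 880, 649 and 502 in Type 2 after depletion (-1.05), and a log2 fold change of 1.94 in the Controls (limma adjusted p = 0.334 for the interaction, the smallest among the genes of both lists). All 5 Type 1 Control and 2 of the 4 Type 2 Control libraries were high-background, whereas all 3 Type 1 TAM depleted libraries were low-background, so depletion and background cannot be told apart in Type 1.

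**Figure D5:**
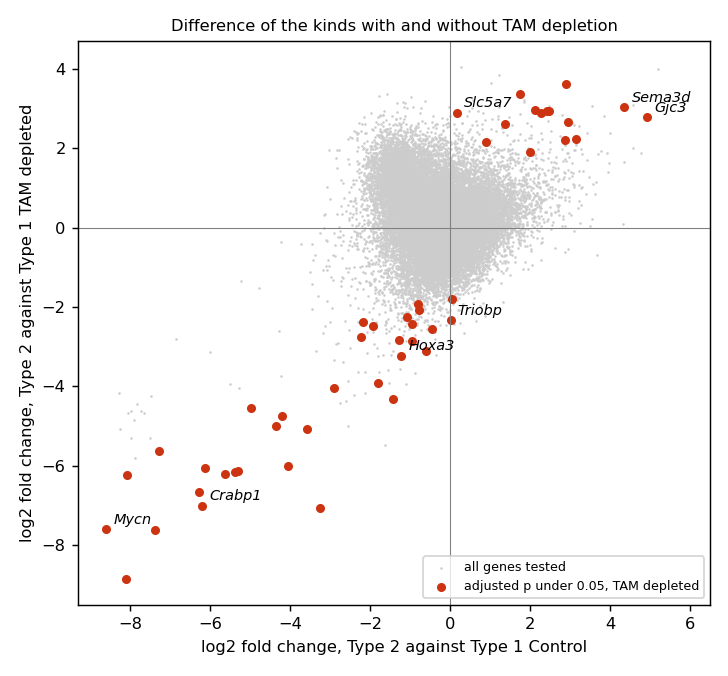
Log2 fold change of Type 2 over Type 1 in TAM depleted tumours (vertical axis) against Control tumours (horizontal axis), 1 point per gene tested, with the 49 genes past the threshold in TAM depleted tumours in red. Most red points lie at the lower left or upper right, 47 of 49 with the same sign on both axes. The share with the same sign over all genes tested is not given here. Triobp and Slc5a7 lie near 0 on the horizontal axis.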

How the data were processed

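Bulk RNA-seq was made from TRIzol and miRNeasy Micro extracts with the SMART-Seq v4 kit, per the labels' protocols, and aligned with STAR 2.7.8a to GRCm38, with DESeq2 used, per the submitters' processing notes. No source used here gives the counting tool, the annotation or the low-gene filter. Of the 3 tables the authors deposited, all on a log2 scale, the one of all 16 libraries (26466 genes) was used. Its values are variance-stabilized, with 1 floor (3.74) shared by all columns. They were inverted to normalized counts, and dividing these by the size of 1 read in the library gave whole reads for 100% of them (within 0.05 reads; the largest deviation was 8.8e-08). No count model was run. Depth is given in the text, and its effect was not tested.

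Genes with 10 or more normalized counts in at least 3 libraries were tested by limma-trend (R 4.3.3, limma 3.58.1) after log2(normalized count + 1), in 1 fit of 4 group means over 16 libraries (12 residual degrees of freedom, prior 4.74), 2-sided, Benjamini-Hochberg over 26463 genes. The steps were tested on simulated data. The comparison, gene lists and the background split (1500 receptor reads per M) were chosen with earlier results of these data known. Named were up to 15 largest rises and falls past the threshold whose groups did not overlap and whose higher group averaged 50 counts or more, without unnamed models and receptors, a fixed list of TAM, precursor, stem cell and suppressor genes, and up to 4 members of each list by p. Of the fixed genes, 2 are not reported here. Triobp, Snhg15, Rhebl1, Lncppara, 5730596B20Rik, Cd74 and the gene models were named after their values were seen. Symbols were matched to GENCODE vM21 (25514, 96.4%, with 1 match). The replicate numbers of the 2 groups did not pair the tumours (correlations of deviations -0.35, -0.44 and -0.62). Alternatives are in the closing section.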

Additional observations from a re-analysis of the deposited data

Results flagged for a closer look

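Of 47 named genes and 36 gene lists, 6 had 1 of the 4 Type 2 TAM depleted tumours far from the other Type 2 tumours, by Dixon's test at its 95% critical value. Chance flags about 1 in 20 groups. Type 2 TAM depleted 4, a high-background library, stood apart for Ddx1 (2886 counts, the others 1035 to 1109), Mycn (465.5, the others 99.2 to 108.1) and C1qa, a complement gene of macrophages (499.9, the others 227 to 233). Its Mycn and Ddx1 levels were still far below those of all Type 1 tumours. Type 2 TAM depleted 2 stood apart for Mdga1 (501.7 counts, the others 179 to 205), Lum (71.2, the others 23.7 to 27.9) and the mean log2 level of the axon guidance list (9.51, the others 8.35 to 8.54). This tumour also had the highest neuron and the lowest proliferation levels of the 7.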

How the results depend on the processing

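Against 49 genes past the threshold between the TAM depleted groups, there were 31 with quantile normalization, 18 with only the groups compared in the fit, 24 in the low-background libraries, 215 with background as a term, 429 with library quality weights and 16 with the replicate block. Leaving out 1 tumour gave 12 to 234. For the interaction, 0 became 166 with background as a term, 748 with quality weights and 1 with the replicate block, and 0 without any 1 tumour. Between the Controls, 819 became 1804 with quantile normalization (1079 higher, 725 lower), 2343 with limma-voom, 6559 with quality weights and 347 with the replicate block, and 510 to 1141 without 1 tumour (510 without Type 1 Control 4, 524 without Type 2 Control 3). The cause of these shifts was not tested. The replicate numbers are only numbers here, and calls lost under the block are not a weaker effect.

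For 38 genes past the threshold that were followed (760 values), 760 kept their sign and 550 stayed past the threshold. The groups of these genes did not overlap. Their sign therefore could not change where only libraries were left out or the filter or pseudocount was changed. Among the other named genes, none of which had passed, some signs reversed. C1qa was -0.15 in the low-background libraries, -0.0084 with the replicate block and -0.15 to 0.67 without 1 tumour. Egfr was 0.13 with quality weights. Gfap was 0.13 with quantile normalization, 0.064 with upper quartile scaling, 0.18 in the low-background libraries, 0.50 with background as a term, 0.23 with quality weights and -0.45 to 0.33 without 1 tumour. Without 1 tumour, Cd68 was -0.96 to 0.19 and Nes -0.41 to 0.62. Of 720 values of list medians, 26 moved by more than the spread between tumours. Of 36 list medians, 19 changed sign under at least 1 alternative, among them those of the lists for TAM (-0.35 to 0.35), endothelial (-0.022 to 0.30), mural (-0.20 to 0.46), glioma growth (-0.48 to 0.15) and interferon response (-0.10 to 0.87).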
